A study of Mus musculus with 24 samples.

Results

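Genes that hepatocytes express strongly were followed across 24 mouse fat arrays, to see whether their transcripts moved together from array to array and with diet. The group held 33 genes named for their role in liver, of 19057 genes with a named probe on the array. Where several probes named a gene, the 1 with the brightest average across the 24 arrays stood for it. Probes were found for 32 of the 33, 49 probes in all, and Gc, the vitamin D-binding protein, was not analysed here. RNA had come from white adipose tissue (WAT) and brown adipose tissue (BAT) of male C57Bl/6J mice, and each tissue was sampled on 3 diets with 4 arrays per diet and tissue. The diets were a high-fat diet with eicosapentaenoic and docosahexaenoic acid (EPA/DHA HFD), a high-fat diet with corn oil (corn-oil HFD), and a low-fat diet that the sample titles call the control diet. The age of the mice, the time on diet and the WAT depot were not given in the sources used here. The text on RNA extraction speaks of skeletal muscle, against the adipose labels of the samples. The design text says that the mice of a diet were picked as typical of their group by weight and plasma lipids, so the spread within a diet may be that of picked animals.

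Hepatocytes make most plasma proteins and secrete them into the blood: apolipoproteins that build lipoprotein particles, carriers of lipids, hormones, haem and iron, clotting factors, protease inhibitors, and the iron hormone hepcidin. They also hold enzymes of drug, amino acid and urea metabolism that few other cells make in quantity. Adipocytes are not a known main source of most of these proteins, although transferrin and Cyp2e1 are also made in fat. In bulk tissue RNA, fewer cells of a type and less RNA per cell cannot be told apart.

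All values are log2 expression as deposited, quantile normalised over the 24 arrays, and ran from 6.95 to 14.79. A floor was set at 7.25, the 99th percentile of 1287 probes for olfactory receptors, a family not known to be active in fat, and a gene was called above the floor in a tissue when at least 4 of its 12 arrays exceeded it. The tissue labels held: Ucp1, the uncoupling protein of brown fat, lay at 7.09 to 10.63 in WAT and at 13.55 to 14.41 in BAT, and leptin (Lep), the hormone of white adipocytes, reached 14.70 in WAT and 11.83 in BAT. An array correlated with the other arrays of its tissue by a mean r of 0.969 to 0.992. No 2 arrays were duplicates. A value at or near the floor does not show that a transcript was absent. The probe of Fabp4, the fatty acid carrier of adipocytes, lay only between 7.15 and 7.52 in WAT, above the floor on 10 of 12 arrays.

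In WAT 28 of the 32 genes were above the floor, 24 of them on every array, where 49.2% of all named genes were above it. In BAT 14 of the 32 were above the floor, 6 of them on every array (Apoc3, Trf, Vtn, Kng1, Cyp2e1 and Mup3), where 48.7% of all named genes were. The genes had been chosen with earlier results of these data known, so the counts in both tissues are a description. A set of 4 genes never exceeded the floor in either tissue, each on a single probe: Alb, serum albumin, at 7.02 to 7.13 in WAT; Fgb, the fibrinogen beta chain, at 6.99 to 7.19 in WAT; Fabp1, the liver fatty acid-binding protein, at 7.02 to 7.10 in WAT; and Tat, tyrosine aminotransferase, at 7.02 to 7.10 in WAT. Albumin is among the most abundant hepatocyte transcripts, and its probe was flat while the probes of Apoa1 and Apoa2 spanned 4.17 and 4.24 log2 units in WAT. No second probe of these genes was named on the array, so the flat readings could not be checked within the data. In BAT, Apoh, Serpinc1, Cyp3a11 and Cps1 also never exceeded the floor, and Apob, Fga, Fgg, Serpina1a, Hpx, F2, Itih3, Hamp, Arg1 and Hpd did so on 1 to 3 arrays.

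**Figure D1:**
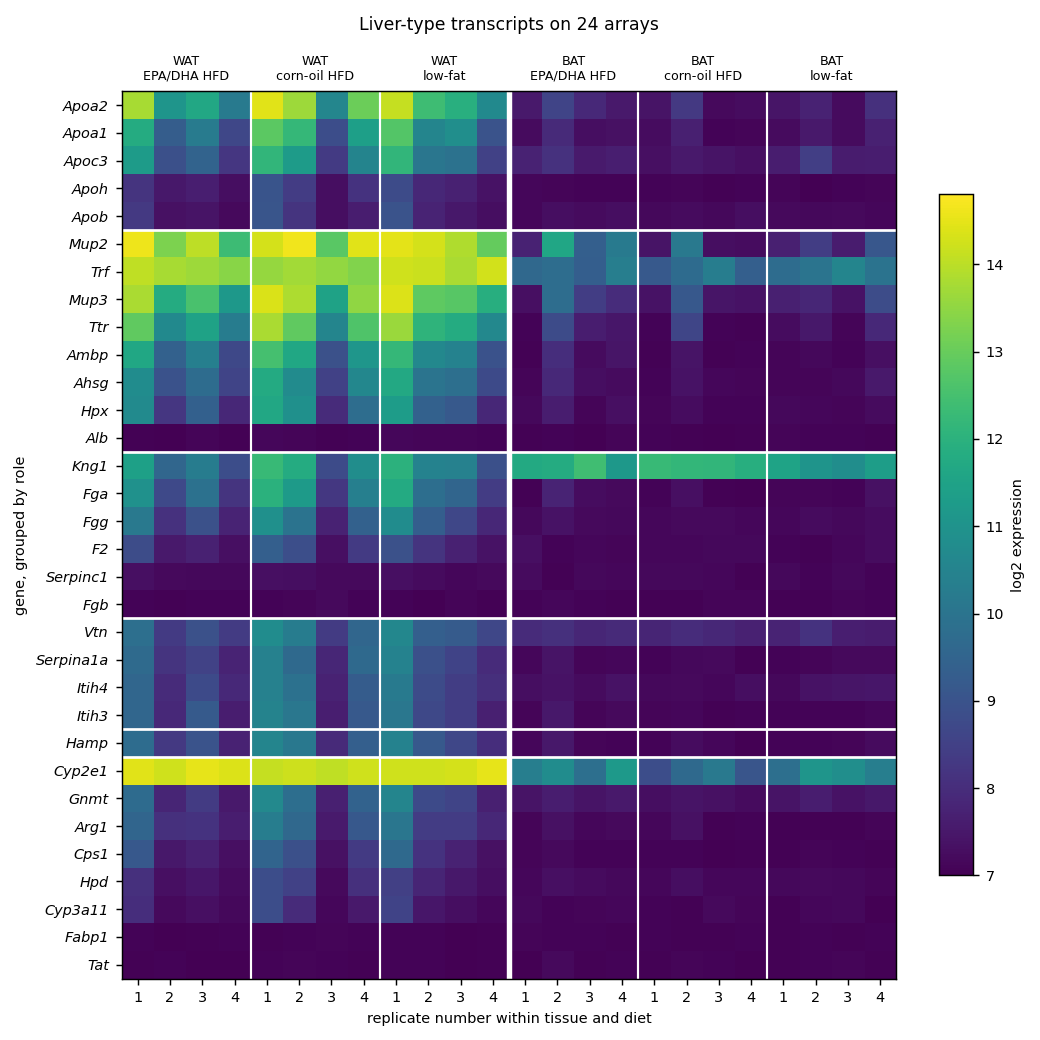
Log2 expression (colour) of 32 genes (rows, grouped by role and sorted by mean) on 24 arrays (columns, replicates 1 to 4 of each tissue and diet). Most rows in WAT brighten and darken together, brightest on corn-oil replicate 1 and low-fat replicate 1, while Trf and Cyp2e1 stay bright on every WAT array and Alb, Fgb, Fabp1 and Tat stay at the floor.

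Apoa1 and Apoa2 encode the main proteins of high-density lipoprotein. In replicate order 1 to 4, Apoa1 in WAT was at 11.81, 9.31, 10.24 and 8.65 on the EPA/DHA HFD, at 12.83, 12.18, 8.85 and 11.40 on the corn-oil HFD, and at 12.72, 10.54, 10.84 and 8.99 on the low-fat diet. Apoa2 in WAT was at 13.77, 11.07, 11.69 and 10.20 on the EPA/DHA HFD, at 14.44, 13.64, 10.58 and 13.06 on the corn-oil HFD, and at 14.13, 12.38, 11.92 and 10.71 on the low-fat diet. Every diet held both high and low arrays, and the 3 diets overlapped over most of the range. The 12 Apoa1 values covered 4.17 log2 units with no gap wider than 0.93, which lay between 9.31 and 10.24. This spread is called a gradient below, and whether the arrays form clusters was not tested. Apoc3, an inhibitor of lipoprotein lipase, had a similar order at 8.25 to 12.14 in WAT, while Apob, the structural protein of very-low-density lipoprotein, and Apoh, beta-2-glycoprotein 1, were dimmer at 7.21 to 9.07 and 7.29 to 9.04.

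Among the carriers, hemopexin (Hpx), which binds haem, in WAT was at 10.73, 8.22, 9.39 and 7.86 on the EPA/DHA HFD, at 11.69, 10.91, 7.97 and 9.79 on the corn-oil HFD, and at 11.30, 9.43, 9.19 and 7.87 on the low-fat diet. Ambp, the precursor of alpha-1-microglobulin and bikunin, in WAT was at 11.65, 9.43, 10.35 and 8.69 on the EPA/DHA HFD, at 12.51, 11.65, 8.93 and 11.08 on the corn-oil HFD, and at 12.20, 10.64, 10.45 and 8.96 on the low-fat diet. The same arrays were high and low as for the apolipoproteins. Transthyretin (Ttr), the carrier of thyroxine and retinol-binding protein, spanned 10.26 to 13.82 in WAT, fetuin-A (Ahsg) 8.51 to 11.76, and the major urinary protein gene Mup3 11.14 to 14.39. Mup2 spanned only 12.36 to 14.63, its brightest arrays lying close to the highest value of the table, so its spread can be understated. The dimmer 2 of its 3 probes spanned 11.27 to 13.97 and 9.44 to 13.02, and Mup probes may read several near-identical copies. Transferrin (Trf), the plasma iron carrier, behaved otherwise, at 14.04, 13.78, 13.66 and 13.41 on the EPA/DHA HFD, at 13.58, 13.72, 13.54 and 13.33 on the corn-oil HFD, and at 14.23, 14.17, 13.81 and 14.28 on the low-fat diet. Its values did not follow the order of the other carriers.

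Of the clotting genes, Fga, the fibrinogen alpha chain, in WAT was at 10.96, 8.72, 9.90 and 8.18 on the EPA/DHA HFD, at 11.98, 11.26, 8.26 and 10.38 on the corn-oil HFD, and at 11.77, 9.81, 9.56 and 8.40 on the low-fat diet. Kininogen 1 (Kng1), the bradykinin precursor, in WAT was at 11.43, 9.59, 10.26 and 8.83 on the EPA/DHA HFD, at 12.24, 11.80, 8.77 and 10.83 on the corn-oil HFD, and at 12.01, 10.45, 10.44 and 8.91 on the low-fat diet. Both had their highest values on corn-oil replicate 1 and their lowest on EPA/DHA replicate 4 or corn-oil replicate 3. Fgg, the gamma chain, followed at 7.74 to 10.92 and prothrombin (F2) at 7.31 to 9.36, whereas antithrombin (Serpinc1) stayed between 7.13 and 7.33 and exceeded the floor on 4 arrays. The 3 fibrinogen chains assemble in equal numbers, yet the Fgb probe stayed at the floor on the arrays where Fga and Fgg were bright.

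Promoter sequences from RefSeq (GRCm38.p6, 250 bases before to 50 bases after the gene start) were at hand for 27 of the 33 genes. HNF1, a factor of hepatocytes, binds paired half-sites of the letters GTTAAT, which were searched on both strands, counting each promoter once and allowing overlap with other motifs. The half-site was in 28.6% of the 28 promoters of these genes (Alb, F2, Fabp1, Fga, Fgb, Gc, Serpina1a and Vtn) and in 7.1% of all 32851 promoters. TTGCNNAA, a C/EBP-like motif, was in 35.7% of the 28 and in 10.8% of all, and TATAAA in 28.6% of the 28 and in 13.6% of all. A match is a description of the letters and not a site of binding. The promoters of the 3 fibrinogen chains and of Alb are printed 5′ to 3′ because their probes gave opposite readings in WAT, bright for Fga and Fgg and at the floor for Fgb and Alb. Capitals mark the half-site on either strand.
Fga (bright in WAT), chr3:83025903-83026202, plus strand: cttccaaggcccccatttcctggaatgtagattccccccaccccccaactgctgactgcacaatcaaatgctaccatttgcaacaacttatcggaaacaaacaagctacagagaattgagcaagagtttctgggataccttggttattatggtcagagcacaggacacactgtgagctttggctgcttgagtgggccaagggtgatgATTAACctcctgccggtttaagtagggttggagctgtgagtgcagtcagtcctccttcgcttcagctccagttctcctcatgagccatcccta
Fgg (bright in WAT), chr3:83007474-83007773, plus strand: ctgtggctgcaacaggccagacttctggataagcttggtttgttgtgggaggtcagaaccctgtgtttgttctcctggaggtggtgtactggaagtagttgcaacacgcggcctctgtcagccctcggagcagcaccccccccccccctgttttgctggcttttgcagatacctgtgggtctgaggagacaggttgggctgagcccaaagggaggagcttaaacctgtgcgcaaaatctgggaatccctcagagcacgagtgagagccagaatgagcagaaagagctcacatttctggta
Fgb (at the floor), chr3:83049814-83050113, minus strand: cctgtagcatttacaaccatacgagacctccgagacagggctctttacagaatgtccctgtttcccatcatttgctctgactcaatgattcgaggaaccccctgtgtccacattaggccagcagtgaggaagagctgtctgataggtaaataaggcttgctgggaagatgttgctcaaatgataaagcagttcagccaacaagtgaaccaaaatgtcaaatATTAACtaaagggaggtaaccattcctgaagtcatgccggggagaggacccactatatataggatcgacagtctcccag
Alb (at the floor), chr5:90460620-90460919, plus strand: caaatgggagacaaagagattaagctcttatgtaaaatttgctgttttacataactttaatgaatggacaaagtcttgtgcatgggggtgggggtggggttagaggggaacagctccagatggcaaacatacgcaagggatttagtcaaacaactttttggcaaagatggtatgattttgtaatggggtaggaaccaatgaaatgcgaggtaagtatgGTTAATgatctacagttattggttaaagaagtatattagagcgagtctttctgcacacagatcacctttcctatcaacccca
The half-site was present in Fga and in both floor genes and absent from Fgg, so within these 4 promoters it did not separate bright from floor probes.

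The protease inhibitors and matrix proteins showed the same gradient with smaller spans. Itih3, a heavy chain of the inter-alpha-trypsin inhibitor family that stabilises hyaluronan, in WAT was at 9.57, 7.91, 9.20 and 7.61 on the EPA/DHA HFD, at 10.49, 10.10, 7.66 and 9.17 on the corn-oil HFD, and at 10.09, 8.70, 8.42 and 7.69 on the low-fat diet. Itih4, of the same family, in WAT was at 9.56, 7.97, 8.77 and 7.91 on the EPA/DHA HFD, at 10.42, 9.92, 7.74 and 9.27 on the corn-oil HFD, and at 10.21, 8.78, 8.42 and 8.04 on the low-fat diet. Serpina1a, an alpha-1-antitrypsin, spanned 7.78 to 10.46 and vitronectin (Vtn) 8.34 to 10.80. Hepcidin (Hamp), the hormone that closes iron export from cells, in WAT was at 9.75, 8.28, 9.01 and 7.74 on the EPA/DHA HFD, at 10.54, 10.12, 7.92 and 9.36 on the corn-oil HFD, and at 10.47, 9.17, 8.66 and 8.03 on the low-fat diet. Secreted and hormone genes thus shared their high arrays, EPA/DHA replicate 1, corn-oil replicates 1 and 2, and low-fat replicate 1.

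Genes for proteins that stay in the cell moved with the secreted ones. Gnmt, glycine N-methyltransferase, in WAT was at 9.74, 7.81, 8.36 and 7.55 on the EPA/DHA HFD, at 10.67, 9.81, 7.69 and 9.46 on the corn-oil HFD, and at 10.56, 8.75, 8.60 and 7.70 on the low-fat diet. Arginase 1 (Arg1), the last enzyme of the urea cycle, in WAT was at 9.54, 8.07, 8.14 and 7.63 on the EPA/DHA HFD, at 10.31, 9.64, 7.57 and 9.14 on the corn-oil HFD, and at 10.06, 8.40, 8.39 and 7.87 on the low-fat diet. Cps1, which opens the urea cycle, spanned 7.33 to 9.67, the tyrosine breakdown enzyme Hpd reached 8.85 and the drug-metabolising Cyp3a11 spanned 7.13 to 8.84. Cyp2e1, the ethanol-inducible cytochrome, was the exception at 14.05 to 14.51 on all WAT arrays, within 0.46 log2 units and close to the top of the scale. Arg1 is also known from macrophages. Its values moved with those of Gnmt, and the cell source of its transcripts was not tested.

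The co-variation was measured against Apoa1, taken because Alb spanned less than 1 log2 unit in WAT. Within 7.02 to 7.13, below the floor, Alb had an r of 0.669 with Apoa1 in WAT. For the other genes at the floor, r was 0.001 for Fgb, 0.053 for Fabp1 and 0.376 for Tat. None of these genes at the floor was tested. Over the 12 WAT arrays, 24 of the other 27 genes above the floor correlated with Apoa1 by a permutation test with 100000 resamples (two-sided, p-values adjusted by the Benjamini-Hochberg method over all 27167 probes tested). All 24 were positive, beside 1.69% of all probes that passed in that direction. The genes had been chosen with earlier results of these data known. The counts and p-values here are therefore a description and not an independent test. An r of at least 0.95 was reached by 21 of the 27, beside 0.438% of all probes, and the median r was 0.98 for these genes and -0.07 for all probes. Apoc3 had an r of 0.994 and a rho of 0.993, Ambp an r of 0.993 and a rho of 0.991, Kng1 an r of 0.992 and a rho of 0.986, and Ttr an r of 0.992 and a rho of 0.993. Their permutation p was 1e-05 for r and for rho, the smallest that this number of resamples can give, and the adjusted permutation p was 0.000977 for r and 0.00134 for rho. Without the 2 arrays farthest from the Apoa1 median, the same genes had an r of 0.991, 0.991, 0.988 and 0.988. After each diet was centred on its mean and arrays were permuted within diets, r was 0.994, 0.994, 0.995 and 0.991, and 23 genes passed. The lost one was Mup2, with an r of 0.895 (adjusted permutation p = 0.0601). With each replicate number centred on its mean instead, a replicate block chosen after seeing the data, the 24 genes had an r of 0.812 to 0.999 with a median of 0.97. Permuting within numbers, the smallest p over all probes was 0.00071, and 0 genes passed (lowest adjusted permutation p = 0.156), while 24 of 27 had an unadjusted permutation p under 0.05.

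**Figure D2:**
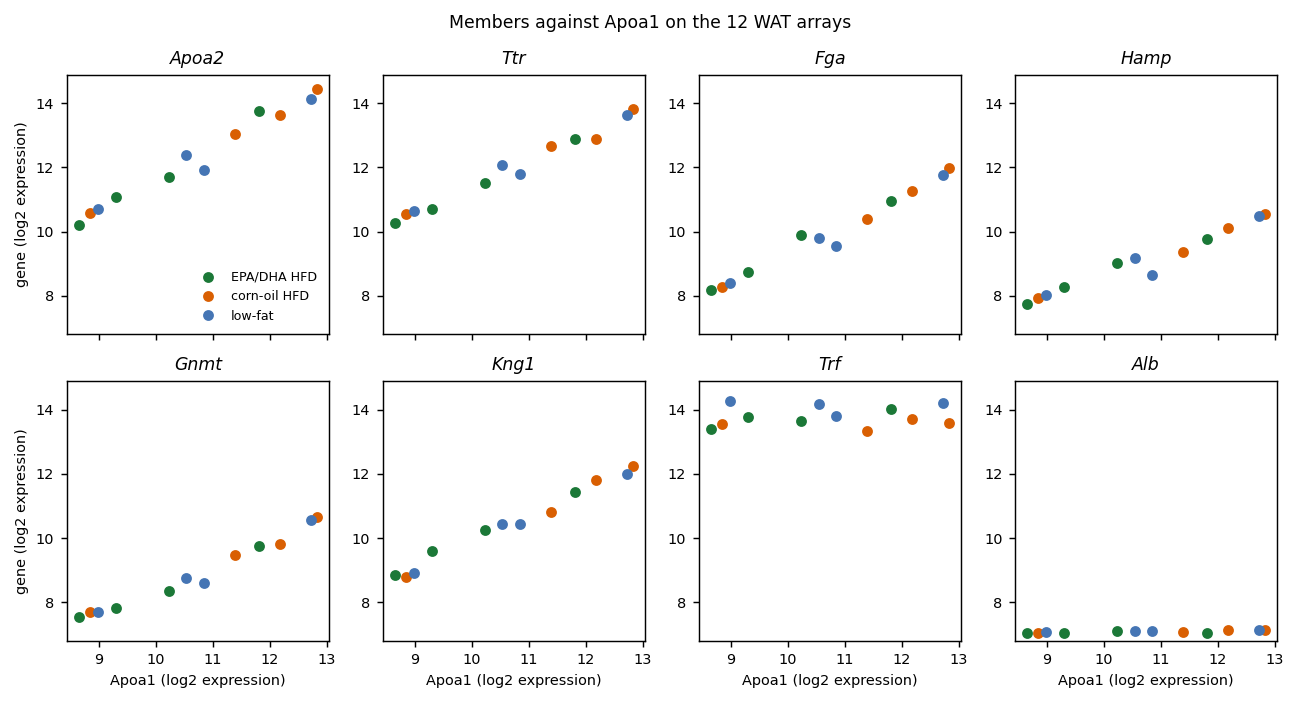
Log2 expression of 8 genes (vertical axes) against Apoa1 (horizontal axes) on the 12 WAT arrays, coloured by diet. Apoa2, Ttr, Fga, Hamp, Gnmt and Kng1 rise with Apoa1 along 1 line that all 3 diets share, Trf does not follow it, and Alb lies flat at the floor.

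Of those above the floor, 3 did not pass: Serpinc1, with an r of 0.738 (adjusted permutation p = 0.275), Trf, with an r of 0.134 (adjusted permutation p = 0.973), and Cyp2e1, with an r of -0.257 (adjusted permutation p = 0.924). Serpinc1 had an unadjusted permutation p of 0.00875. Its second probe, above the floor on 1 WAT array, had an r of 0.865 with Apoa1. The slope of a gene's log2 value on that of Apoa1 was 0.97 for Apoa2, 0.93 for Apoc3 and 0.90 for Hpx, against 0.37 for Apoh, 0.36 for Hpd and 0.35 for Cyp3a11. The genes with the low slopes lay close to the floor on the low arrays, where differences may shrink, and the part of this in their slopes was not tested. Among the 26 genes without Trf and Cyp2e1, the median r over 325 pairs was 0.97 and the lowest was 0.587. Corn-oil replicate 1 was the highest array for 21 of these 26 genes and EPA/DHA replicate 4 the lowest for 17. Replicate 1 of all 3 diets was among the high arrays, and the 4 high arrays were the first 4 WAT samples in the series' own listing. The mean of the 26 genes was 10.36 to 11.10 on those 4, 8.70 to 9.55 on the next 4 listed and 8.31 to 9.94 on the last 4. The labels do not say that number or listing marks a day, chip or batch, and its part in the gradient was not tested. Where a gene had further probes above the floor in WAT, they moved with the brightest one. For the second probe r was 0.999 for Fga, 0.992 for Apoa2, 0.988 for Hpx and 0.986 for Kng1. The lowest r were 0.873 for the dimmest Gnmt probe and 0.902 for the dimmest Mup2 probe. The dimmest Kng1 probe stayed at the floor in both tissues, with r of 0.042 to the brightest in WAT.

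Brown fat gave a weaker picture. Mup2 in BAT was at 7.75, 11.63, 9.36 and 10.22 on the EPA/DHA HFD, at 7.40, 10.14, 7.30 and 7.25 on the corn-oil HFD, and at 7.68, 8.41, 7.61 and 9.12 on the low-fat diet. Ttr in BAT was at 7.06, 8.78, 7.64 and 7.47 on the EPA/DHA HFD, at 7.07, 8.62, 7.08 and 7.05 on the corn-oil HFD, and at 7.25, 7.50, 7.11 and 7.89 on the low-fat diet. Apoa2 in BAT was at 7.53, 8.61, 7.91 and 7.53 on the EPA/DHA HFD, at 7.40, 8.30, 7.19 and 7.25 on the corn-oil HFD, and at 7.44, 7.74, 7.24 and 8.07 on the low-fat diet. All 3 genes were highest on EPA/DHA replicate 2 and high on corn-oil replicate 2. Low-fat replicate 4 was also raised, at 9.12 for Mup2, 7.89 for Ttr and 8.07 for Apoa2. Mup2 was high on EPA/DHA replicates 3 and 4 too, at 9.36 and 10.22. Ttr and Apoa2 lay nearer the floor on most other BAT arrays. None of the 24 genes tested passed the permutation test against Apoa1 in BAT, and none of all the probes did (0%). At an unadjusted permutation p under 0.05, 15 of the 24 were past the threshold, beside 3.67% of all probes. The 24 had entered the test by their mean expression and not by the floor. Of the 15, Fga, Fgg, Hamp, Hpx, Itih3, Arg1, Serpina1a and Hpd exceeded the floor on only 1 to 3 BAT arrays. Most of their values thus lay below it. Without the 2 arrays farthest from the Apoa1 median, their r ran from 0.10 for Serpina1a to 0.87 for Hpd. Apoa2 had an r of 0.936 and a rho of 0.944 with Apoa1 in BAT (permutation p = 7e-05 for r, adjusted 0.475), and an r of 0.878 without the 2 farthest arrays. Ttr had an r of 0.910 and Mup3 of 0.909.

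**Figure D3:**
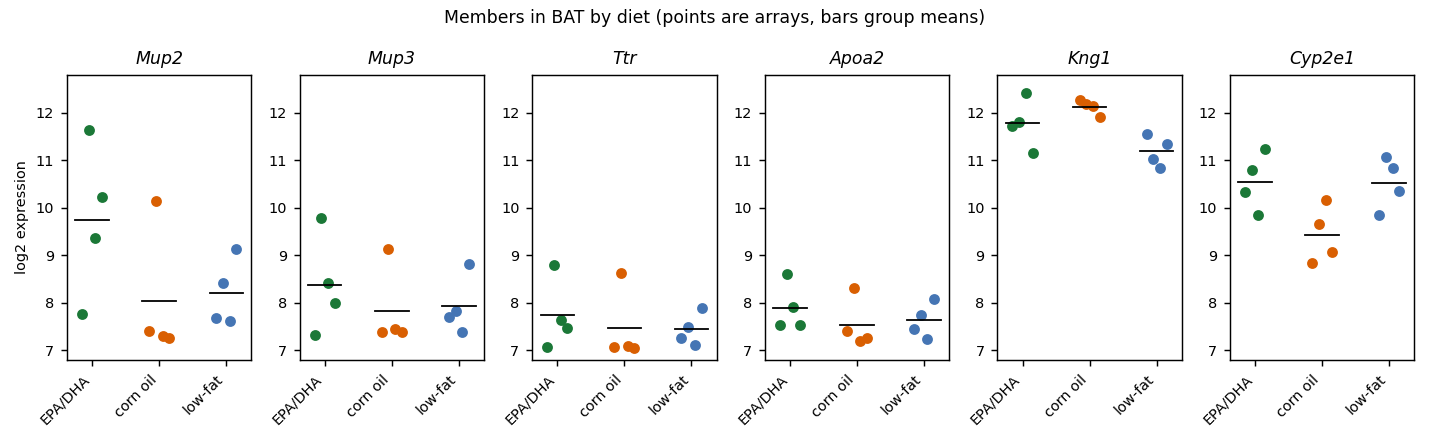
Log2 expression (vertical axis) of 6 genes on the 12 BAT arrays, by diet (horizontal axis), with points for arrays and bars for the mean of 4 arrays. Mup2, Mup3, Ttr and Apoa2 have 1 or a few high arrays above a low group, while Kng1 lies between 10.83 and 12.41 and Cyp2e1 between 8.83 and 11.22 on every array.

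Kng1 differed from the other genes in BAT. It was at 11.73, 11.80, 12.41 and 11.15 on the EPA/DHA HFD, at 12.27, 12.17, 12.15 and 11.90 on the corn-oil HFD, and at 11.54, 11.03, 10.83 and 11.34 on the low-fat diet. These values lay from 10.83 to 12.41, where WAT had run from 8.77 to 12.24, varied less between arrays than in WAT, and did not follow Apoa1 (r = -0.120, permutation p = 0.706). Its second probe lay between 7.58 and 10.67 in WAT and between 7.80 and 9.26 in BAT. The near copy Kng2 can share reads of such probes, so the assignment to Kng1 is uncertain. Trf at 9.18 to 10.56 and Cyp2e1 at 8.83 to 11.22 were also well above the floor on every BAT array, and Vtn lay at 7.58 to 8.13.

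Tissues were compared on each diet with limma over all 24 arrays, adjusting over the 29493 probes whose mean passed the low-value filter in either tissue. Of these genes 28 were tested and 25 passed the filter in BAT itself, so Apoh, Cyp3a11 and Cps1 entered only through WAT, and the counts are a description. On the EPA/DHA HFD 12 of the 28 were higher in WAT and 1 was lower, beside 16.3% of all probes higher and 15.4% lower. On the corn-oil HFD 24 of the 28 were higher and 0 lower, beside 18.1% and 16.3% of all probes. On the low-fat diet 23 of the 28 were higher and 0 lower, beside 18.7% of all probes in each direction. Without WAT low-fat replicate 1, the highest low-fat array, the low-fat count fell to 13. The median WAT minus BAT difference of the 28 was 1.42 on the EPA/DHA HFD, 2.31 on the corn-oil HFD and 1.89 on the low-fat diet, where the median of all probes was -0.01 on each diet.

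Mup2 was higher in WAT by 3.83 ± 0.74 on the EPA/DHA HFD (standard error, limma adjusted p = 0.000351), by 6.02 ± 0.74 on the corn-oil HFD (1.37e-06) and by 5.69 ± 0.74 on the low-fat diet (2.67e-06). Apoa1 was higher by 2.55 ± 0.75 on the EPA/DHA HFD (limma adjusted p = 0.0123), by 4.03 ± 0.75 on the corn-oil HFD (0.000212) and by 3.35 ± 0.75 on the low-fat diet (0.00122). Without WAT EPA/DHA replicate 1, the Apoa1 difference on the EPA/DHA HFD was 1.95 and lost its call (limma adjusted p = 0.0591). Trf and Cyp2e1, which did not share the WAT gradient, were higher in WAT by 3.96 ± 0.23 and 3.85 ± 0.28 on the EPA/DHA HFD, by 3.90 ± 0.23 and 4.73 ± 0.28 on the corn-oil HFD, and by 4.05 ± 0.23 and 3.80 ± 0.28 on the low-fat diet. Kng1 was the lower one, by -1.74 ± 0.65 on the EPA/DHA HFD (limma adjusted p = 0.0460), against -1.21 ± 0.65 on the corn-oil HFD (0.166) and -0.73 ± 0.65 on the low-fat diet (0.412). That call was lost in 4 of the alternative settings, the mean of its 3 probes giving -0.70 (limma adjusted p = 0.194). It held without WAT EPA/DHA replicate 1 or BAT EPA/DHA replicate 4 and was lost without each of the other 6 EPA/DHA arrays, with values from -1.82 to -1.34.

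**Figure D4:**
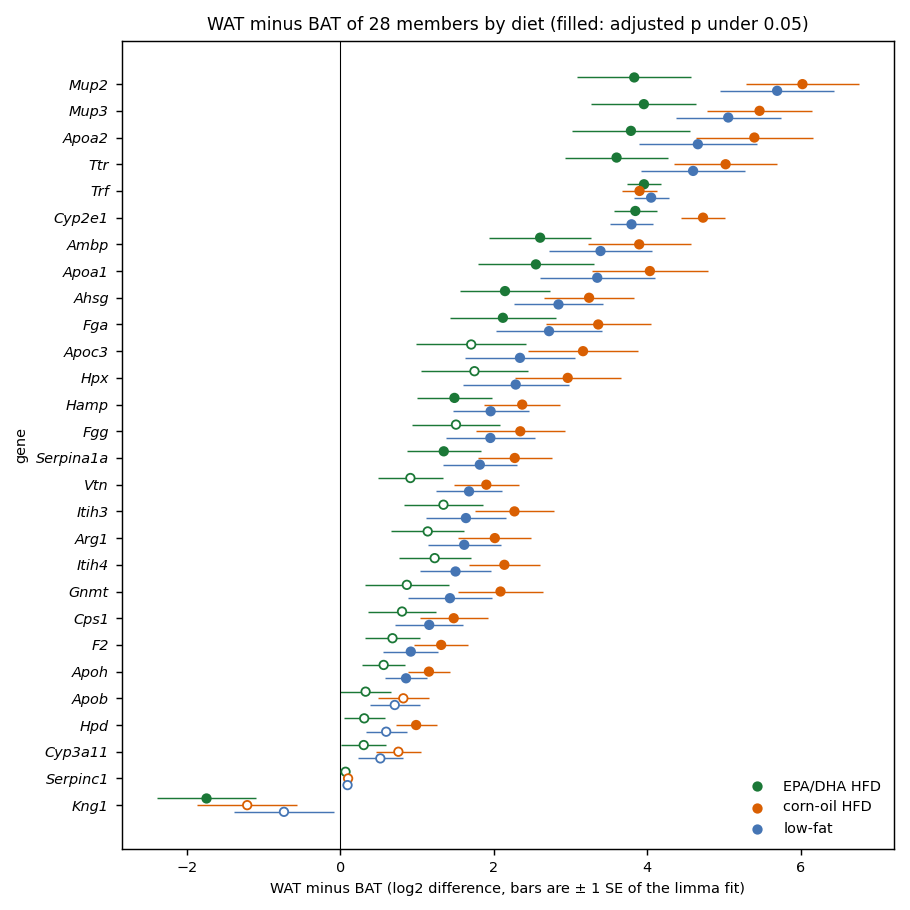
WAT minus BAT difference in log2 expression (horizontal axis) of 28 genes (vertical axis) on each diet, with bars of 1 standard error from limma and filled points at an adjusted p under 0.05. All genes but Kng1 lie right of 0, from 0.07 for Serpinc1 on the EPA/DHA HFD to 6.02 for Mup2 on the corn-oil HFD.

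For 20 of the 28 genes every WAT array lay above every BAT array, as for 11.9% of 14264 named genes. The 20 include Apoh and Cps1, which passed the filter only in WAT, so this count too is a description. The 8 whose tissues overlapped were Kng1 and 7 that lay near the floor on low WAT arrays or had raised BAT arrays: Apob, Apoc3, Serpinc1, F2, Cyp3a11, Gnmt and Hpd. The limma fit shares 1 spread over both tissues, and these genes varied far more in WAT, so tissue differences are less sure than their p-values show.

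For the diets, limma was run in each tissue on 27168 probes. No gene of the 28 tested in WAT passed between EPA/DHA HFD and low-fat diet, where 0.0479% of all probes did, between corn-oil HFD and low-fat diet (2.93%), or between EPA/DHA HFD and corn-oil HFD (1.76%). At an unadjusted limma p under 0.05 the counts were 1, 1 and 1 of 28. In BAT no gene of the 25 tested passed on EPA/DHA HFD against low-fat diet (0.00736% of all probes), corn-oil HFD against low-fat diet (0%) or EPA/DHA HFD against corn-oil HFD (0%), and the counts at an unadjusted limma p under 0.05 were 1, 5 and 2. No difference of a diet effect between tissues passed either, among 28 genes tested and beside 0.0102%, 0.505% and 0.197% of all probes in the same order, with 0, 1 and 2 genes at an unadjusted limma p under 0.05.

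The WAT spread within diets was wide. The residual standard deviation of these genes had a median of 1.02 in WAT, against 0.06 for all probes tested. Apoa1 averaged 10.001 ± 1.37 on the EPA/DHA HFD and 10.77 ± 1.53 on the low-fat diet (SD, n = 4 each), a difference of -0.77 with a 95% interval from -2.99 to 1.44. Apoa1 averaged 11.31 ± 1.74 on the corn-oil HFD, 0.54 above the low-fat diet with an interval from -1.67 to 2.75, and EPA/DHA HFD minus corn-oil HFD was -1.31 with an interval from -3.53 to 0.90. All 3 intervals include 0. Leaving out 1 array at a time gave -1.37 to -0.12 for EPA/DHA HFD minus low-fat diet, -0.052 to 1.36 for corn-oil HFD minus low-fat diet, with the low end without low-fat replicate 4, and -2.13 to -0.81 for EPA/DHA HFD minus corn-oil HFD. The median difference over the 28 genes was -0.40 for EPA/DHA HFD minus low-fat diet, 0.40 for corn-oil HFD minus low-fat diet and -0.81 for EPA/DHA HFD minus corn-oil HFD, where the medians of all probes were 0.00, 0.00 and 0.00. The genes are correlated, so these medians are not independent readings, and the comparisons share arrays.

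Trf came nearest to a call in WAT. It averaged 13.55 ± 0.16 on the corn-oil HFD and 14.12 ± 0.21 on the low-fat diet (SD, n = 4 each), a difference of -0.58 ± 0.14 (limma adjusted p = 0.0570, and 0.0196 to 0.267 over 8 alternative settings), and the highest corn-oil array lay below the lowest low-fat array. It passed in 3 of those settings and without low-fat replicate 3 (limma adjusted p = 0.0365). In BAT, Kng1 averaged 12.12 ± 0.16 on the corn-oil HFD and 11.18 ± 0.31 on the low-fat diet (SD, n = 4 each), a difference of 0.94 ± 0.23 with no overlap that did not pass (limma adjusted p = 0.311). With the mean of its 3 probes the difference was 0.54 (limma adjusted p = 0.329). Cyp2e1 in BAT averaged 9.43 ± 0.60 on the corn-oil HFD and 10.52 ± 0.54 on the low-fat diet (SD, n = 4 each), a difference of -1.09 ± 0.37 (limma adjusted p = 0.461).

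Other hepatocyte genes, listed apart from the 33, moved with them. These lists were also chosen with earlier results of these data known, so their correlations are a description and not an independent check. Of 33 other secreted hepatocyte genes with a probe, 31 were above the floor in WAT and 6 in BAT, and the median r with Apoa1 in WAT was 0.95. Of 27 other hepatocyte genes of enzymes, transporters and factors, 21 were above the floor in WAT and 4 in BAT, with a median r of 0.96. Apoc4 spanned 8.14 to 11.34 in WAT (r = 0.98), the zinc-alpha-2-glycoprotein gene Azgp1 8.03 to 11.67 (r = 0.99), the methionine adenosyltransferase gene Mat1a reached 11.59 (r = 0.99) and the bile acid and drug transporter Slco1b2 spanned 7.85 to 10.97 (r = 0.98). Between tissues 31 of the secreted genes were tested, of which 15 passed the low-value filter in BAT itself, so these counts too are a description. In WAT 4 were higher and 1 lower on the EPA/DHA HFD, 26 and 0 on the corn-oil HFD, and 14 and 1 on the low-fat diet. Of 25 cellular genes tested, 16 of which passed the filter in BAT, 5 were higher and 1 lower on the EPA/DHA HFD, 21 and 1 on the corn-oil HFD, and 8 and 1 on the low-fat diet. Over all probes 16.3%, 18.1% and 18.7% were higher in WAT on the 3 diets in that order. Exceptions, chosen after their values were seen, were Orm1 (r = -0.02, with a highest WAT value of 13.72) and Fah (r = 0.20, at 11.93 to 12.53), bright in both tissues like Trf and Cyp2e1, and Igfals, a carrier of insulin-like growth factors (r = 0.43, at 10.35 to 11.55 in WAT). Pzp, A1bg, Slc10a1, Tdo2, Nr1i3 and Foxa2 never exceeded the floor in WAT.

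**Figure D5:**
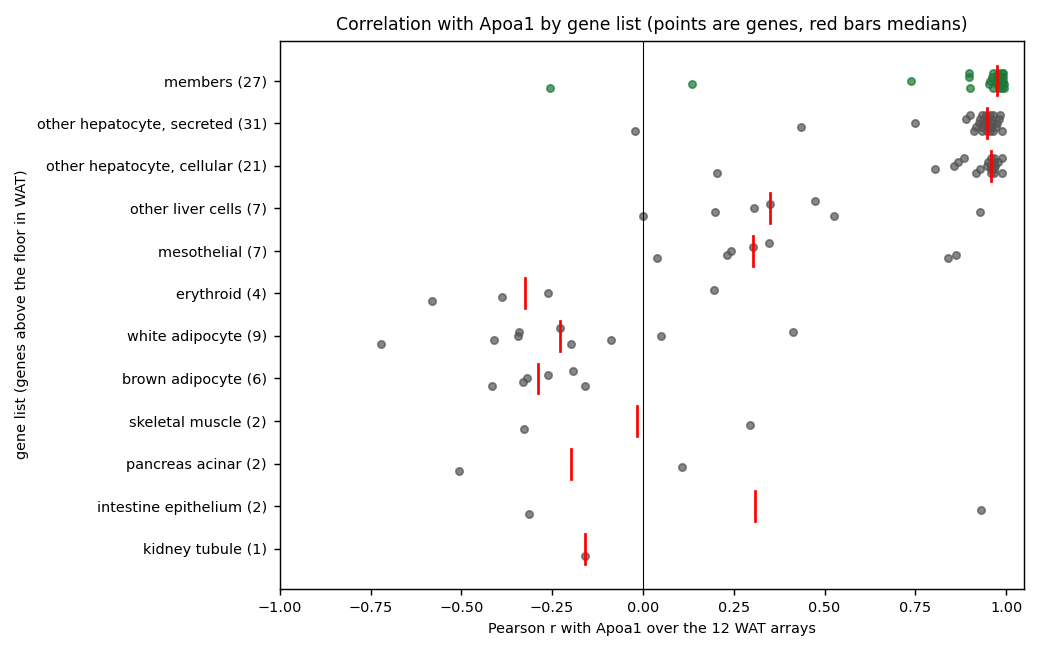
Pearson r with Apoa1 over the 12 WAT arrays (horizontal axis) for genes above the floor in WAT, by gene list (vertical axis, number of genes in brackets), with points for genes and red bars for medians. The 3 hepatocyte lists have medians of 0.95 to 0.98, and the other lists have medians between -0.32 and 0.35.

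Lists of other cells gave lower correlations. Of 13 genes of liver cells other than hepatocytes, 7 were above the floor in WAT, with a median r of 0.35. The liver endothelial lectin Clec4g reached an r of 0.93 at 7.29 to 8.39, and Vsig4, of resident macrophages, an r of 0.52 at 7.30 to 9.55. Clec4f had an r of 0.86 at 7.09 to 7.41 and exceeded the floor on 3 WAT arrays, while Cd5l, Marco and Stab2 stayed at the floor. Mesothelial genes, which cover visceral organs and fat, had a median r of 0.30 with 7 of 8 above the floor and list means of 7.38 to 8.07 over the WAT arrays. Krt8 in that list had an r of 0.86 and Krt18 of 0.84, and Krt8 is also made by hepatocytes. White adipocyte genes had a median r of -0.23, brown adipocyte genes -0.29 and red cell genes -0.32, and the white adipocyte list mean stayed between 11.79 and 12.14 over the WAT arrays. Of 13 pancreas genes 2 were above the floor in WAT, of 11 kidney genes 1, of 9 skeletal muscle genes 2, of 11 intestine genes 2 and of 11 epididymis genes 0. Apoa4, in the intestine list and also known from mouse liver, had an r of 0.93. The part of any of these cell types in the shared gradient was not tested.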

How the data were processed

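RNA of 24 samples was measured on a 1-colour Illumina mouse beadchip. The authors deposited a log2 expression value for each probe, made with lumi 2.18.0 per the submitters' processing notes. Near-identical quantiles in all 24 columns show quantile normalisation. Whether the log2 scale is plain or variance-stabilised, and the background correction, are not given in the sources used here, and the table holds no detection calls. Of 45281 probes, 34885 had 1 gene symbol in the platform annotation, 18 had several and 10378 had none.

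Probes with a mean above the 40th percentile of their tissue were kept. Differences between diets were fitted with limma 3.58.1 (R 4.3.3) on the 12 arrays of a tissue, and tissue differences and interactions on all 24, with Benjamini-Hochberg adjustment over all kept probes and a threshold of 0.05. Correlations with Apoa1 used Python 3.11.15 and numpy 2.4.6. Their p-values were adjusted over all kept probes, where the plan had named the listed genes alone. Apoa1 was the first of Alb, Apoa1 and Ttr with a WAT range over 1. By rule, values on every array were given for the 2 genes of each role with the largest WAT range, up to 4 genes were named per other list by WAT range, and the 15 genes most like the listed ones were named. Values on every array for Trf in WAT and for Mup2, Ttr, Apoa2 and Kng1 in BAT were chosen after the values were seen. So were the list genes Clec4f, Clec4g, Krt8, Krt18 and Apoa4 where the range rule had not named them. The genes and lists were chosen with earlier results of these data known. The labels do not say whether equal replicate numbers in WAT and BAT mark 1 mouse, so p-values measure the spread between these samples. The number of arrays limits the precision. Both kinds of test were checked on simulated data: at a log2 difference of 1, 96.4% of changed probes were recovered for corn-oil HFD minus low-fat diet in WAT (27168 probes). That rate is for probes of typical spread and does not hold for the listed genes, whose residual spread in WAT was far wider. Alternatives covered the filter, centring, prior, array weights, probe choice, replicate block (for the correlations, added after seeing the data), samples fitted and each array left out.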

Additional observations from a re-analysis of the deposited data

Results flagged for a closer look

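Of 126 groups of 4 arrays tested, 8 held an array that stood far from the other 3 (gap over range above Dixon's 95% critical value), where chance alone gives about 1 in 20. All 8 were in BAT, each a high array, and 5 were corn-oil HFD replicate 2. On that array Mup2 was at 10.14 where the other 3 lay at 7.25 to 7.40, Mup3 at 9.13 against 7.38 to 7.44, and Ttr at 8.62 against 7.05 to 7.08. Ambp was at 7.42 there against 7.05 to 7.08, and Ahsg at 7.37 against 7.08 to 7.12. The other 3 were Apoa1 on EPA/DHA HFD replicate 2 (7.92 against 7.24 to 7.35), Apoc3 on low-fat replicate 2 (8.46 against 7.59 to 7.62) and Ahsg on low-fat replicate 4 (7.54 against 7.11 to 7.16).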

How the results depend on the processing

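The 24 genes that correlated with Apoa1 in WAT numbered 23 to 24 over 4 alternatives and 24 without each array in turn, but 0 with the replicate block, an alternative chosen after seeing the data in which few permutations are possible and no probe of the whole table passed. The count in BAT stayed at 0. No diet comparison or interaction called a gene under any alternative except corn-oil HFD minus low-fat diet in WAT, which called 1 (Trf) with the filter at the 60th percentile, 1 with a trended and robust prior and 1 with the mean of all probes, and 0 to 1 with each array left out. Apoa1 in that comparison was -0.052 to 1.36 with each array left out, turning its sign without low-fat replicate 4, and the cause was not tested. Genes called between tissues numbered 9 to 18 on the EPA/DHA HFD, 23 to 26 on the corn-oil HFD and 13 to 25 on the low-fat diet with each array left out. With 1 array above the floor sufficing, 24 genes counted as present in BAT, and with all 12 needed, 6. With the replicate block in limma, 0 genes were called in each diet comparison and interaction, and 12 on the EPA/DHA HFD, 24 on the corn-oil HFD and 20 on the low-fat diet between tissues. The labels do not say that equal numbers pair samples, and over all groups the deviations of same-numbered arrays correlated with mixed signs, from -0.36 to 0.54. In WAT, replicate 1 correlated between diets at 0.44 to 0.54, replicate 2 at -0.27 to -0.01, replicate 3 at 0.11 to 0.29 and replicate 4 at 0.03 to 0.22. Values near the floor or the ceiling of the scale can understate differences.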

Other observations

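Outside the listed genes, 13323 genes were compared with the mean of the listed genes above the floor over the 12 WAT arrays, after centring each diet. An r of at least 0.95 was reached by 135 of them, and of -0.9 or less by 9. The most alike were Serpina1d, an alpha-1-antitrypsin that was at 9.41 to 13.80 in WAT (r = 0.998), Apof, an apolipoprotein (r = 0.998), Cyp2d9, a cytochrome P450 (r = 0.997), and Serpina1c (r = 0.997). Azgp1, Mat1a, Ces1c, Serpina1b, Mup21, Slco1b2, Crp, Ass1, Mup6, Itih1 and Gltpd2 followed with r from 0.992 to 0.996. The Serpina1 and Mup genes have near-identical copies that the probes may not tell apart. The genes were ranked by this likeness, so the values are a description with no test.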
